A study of Drosophila melanogaster with 4 samples.

Results

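Peaks of Fruitless (Fru) binding on chromosome arm 3L of Drosophila melanogaster are described here. They were taken as the rows of the authors' peak list whose sequence name is exactly 3L, and every such row was kept, which gave 1040 of the 5538 peaks of the list, or 18.8%. The list came from chromatin immunoprecipitation followed by sequencing (ChIP-seq) of whole embryos, in which DNA cross-linked to a protein is recovered with an antibody and sequenced. The labels give 2 ChIP libraries, made with a rabbit polyclonal antibody against Fru, and 2 libraries of input DNA, which is chromatin DNA sequenced without that recovery. All 4 libraries share the strain Y cn bw sp, whose genotype in the labels has y[1] with oc[R3.2] on the first chromosome. The second carries bw[1], sp[1] and cn[1] together with CG33964[R4.2], Gr22d[1] and Gr22b[1], and the third carries Rh6[1], GstD5[1] and MstProx[1] together with LysC[1] and lab[R4.2]. The sex of the embryos is given as unknown. The stage label runs from 0 to 8, while the collection steps speak of egg laying at 8 to 16 hours, and the labels alone do not settle which holds. Whole embryos were collected together, so a peak can come from any of their cells.

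Fru is a DNA-binding protein with a BTB domain, through which such proteins pair up, and zinc fingers, through which they bind DNA. The fruitless gene is best known for male-specific products that shape the courtship circuit of the adult brain, and it also makes products in both sexes that are needed for viability and for the growth of axons in the embryonic nervous system. Arm 3L is the left arm of one of the large autosomes. Its coordinates count from the telomere, the end of the chromosome, towards the centromere, where gene-poor and repeat-rich heterochromatin begins.

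The list holds 1 position and 1 score for each peak and nothing per library. Values below therefore have no replicate error, and the depth behind a peak is unknown. The scale of the score is not stated, so it serves only to rank peaks within the list. Coordinates are those of FlyBase Release 5. Gene positions and sequence of that release were not used here, so peaks are named by position and are assigned to no gene.

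Fru peaks were found in every 1 Mb of 3L, with few at its centromere end. The first peak ran from 131486 to 131976 and the last from 24434461 to 24434711, a span of 24.3 Mb with 42.8 peaks per Mb. Together the peaks covered 535 kb, which was 2.20% of the span. In windows of 1 Mb laid from the telomere end, the first 23 windows held from 24 to 80 peaks each, with a mean of 45.1 ± 13.0 (SD over windows). Over these 23 windows the number of peaks had no clear trend with position, with a Spearman's rho of -0.07 given as a description, and the median width and median score had none either, with rho of 0.08 and 0.10. The windows share a single list and the depth of its libraries.

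**Figure D1:**
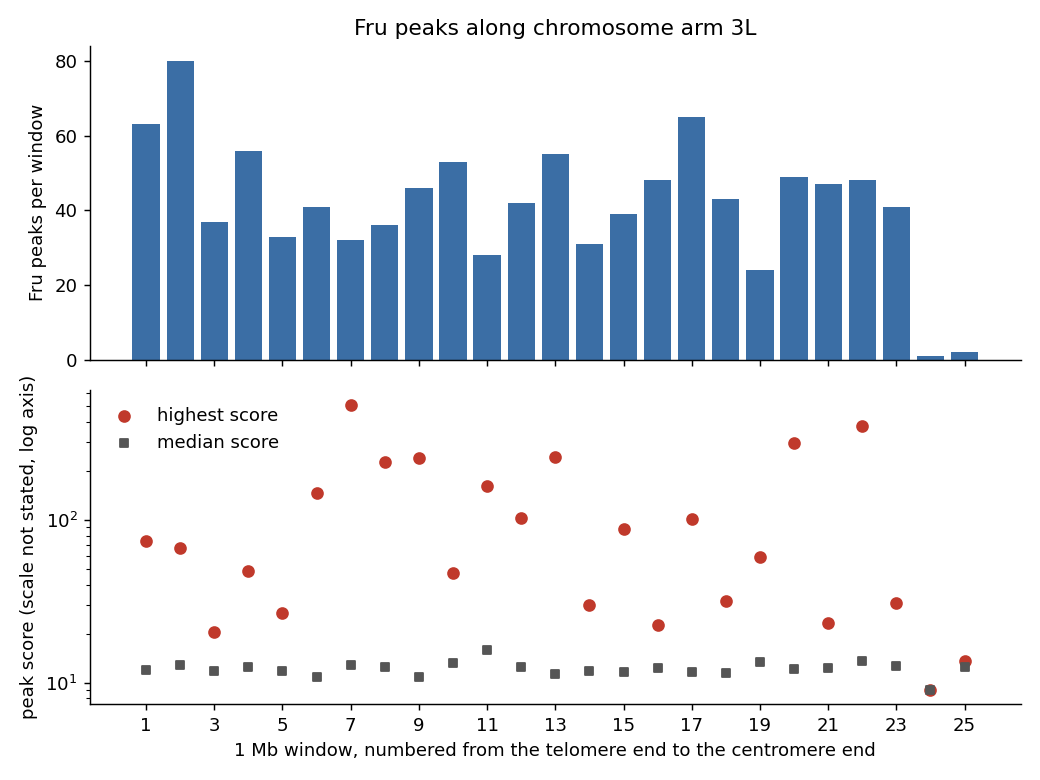
Upper panel, number of Fru peaks in each 1 Mb window of 3L. Lower panel, highest (circles) and median (squares) peak score in the same windows on a log axis, from the telomere end on the left to the centromere end on the right. Median scores stay between 9.02 and 15.82 while highest scores run from 9.02 to 509.52, and the last 2 windows hold 1 and 2 peaks.

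The fullest window lay near the telomere, from 1000001 to 2000000, with 80 peaks that covered 3.73% of it. The window before it, from 1 to 1000000, held 63 peaks and was the third fullest. The second fullest was far from both, from 16000001 to 17000000, with 65 peaks, of which 8 were 1000 bp or wider. At the other end of the order, the window from 23000001 to 24000000 held 1 peak, that from 18000001 to 19000000 held 24, and that from 10000001 to 11000000 held 28. The last of these had few peaks but wide ones. Its median width was 535 bp and its median score 15.82, the highest medians of the 25 windows, and it contained 2 peaks with scores over 50.

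Divided into 5 equal sections of 4.86 Mb from telomere to centromere, the span held 269, 204, 181, 211 and 175 peaks. The section next to the telomere had 25.9% of all peaks on the arm (95% Wilson interval 23.3% to 28.6%), or 55.3 per Mb. The section next to the centromere had 16.8% (14.7% to 19.2%), or 36.0 per Mb. That section includes a last stretch of 1.49 Mb with 3 peaks, and up to that stretch the section held 172 peaks in 3.37 Mb, or 51.0 per Mb. These intervals treat peaks as independent and cover counting error only, and neighbouring peaks are clustered. Typical peaks were alike along the arm, with median widths of 368, 378.5, 367, 352 and 390 bp and median scores of 12.22, 12.34, 12.22, 11.89 and 12.91 in the same order. Wide and high peaks were spread otherwise than the peak number, though on small counts. Peaks of 1000 bp or wider made up 5.58% of the peaks in the section next to the telomere, and 10.8%, 11.6%, 9.00% and 8.57% in those that follow. In numbers these were 15, 22, 21, 19 and 15 wide peaks. Scores over 50 were reached by 3, 8, 7, 3 and 3 peaks, and scores over 100 by 0, 4, 5, 1 and 2. The section next to the telomere thus held the most peaks and none over 100. No test was made between the sections, since they were compared after earlier results on this list were known and share its libraries.

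Most Fru peaks on 3L were narrow. The median width was 371.5 bp with quartiles of 264 and 605.5 bp, and 358 peaks (34.4%) were narrower than 300 bp. The narrowest width of the whole list is 201 bp, shared by 169 peaks in the whole list and by 29 on 3L, which had scores of 6.24 to 13.26. At the upper end 343 peaks (33.0%) reached 500 bp, 92 (8.85%) reached 1000 bp and 16 (1.54%) reached 2000 bp. The 92 wide peaks held 26.9% of all bases covered on the arm.

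Scores were low for most peaks and very high for a few. The lowest was 6.24, the quartiles were 9.94, 12.22 and 16.19, and 135 peaks (13.0%) scored over 20. A score over 50 was reached by 24 peaks, over 100 by 12 and over 200 by 6. Score and width went together across the 1040 peaks, with a Spearman's rho of 0.67 that is given as a description, since peaks are not independent and a peak caller can give a wide region a higher score. Wide peaks all scored at or above the median of the arm, though not all were among the highest. Of the 92 wide peaks, 51 (55.4%) scored 25 or less, a score that only 72 peaks (6.92%) of the arm passed. The 92 had a median score of 23.18 with quartiles of 17.17 and 36.32, and their lowest score was 12.22. Of the 948 narrower peaks, 5 scored over 50 and 1 over 100.

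**Figure D2:**
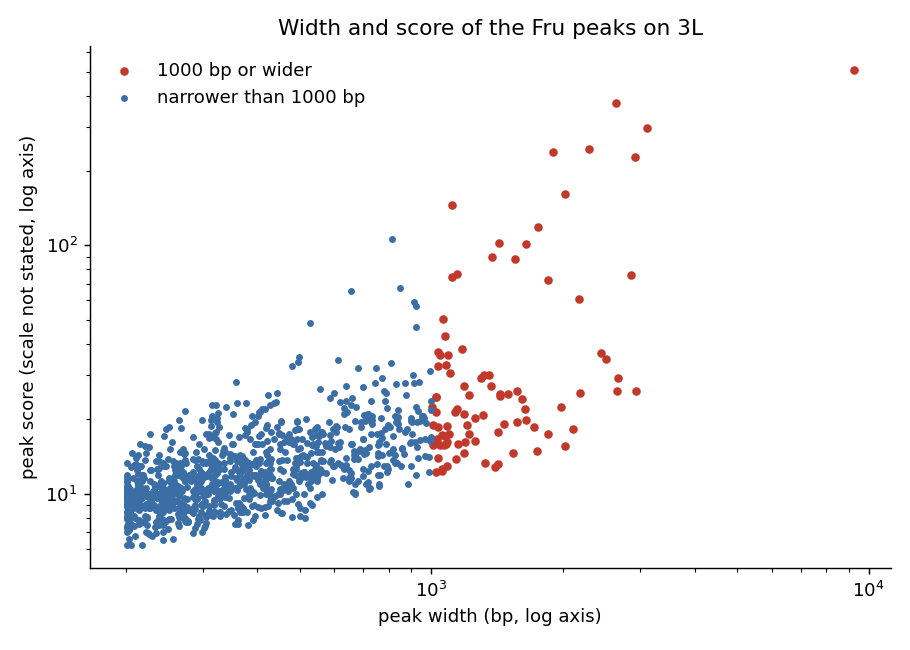
Width (bp) and score of each of the 1040 Fru peaks on 3L, both on log axes, with the 92 peaks of 1000 bp or wider in red. The wide peaks run from a score of 12.22, which is also the median of all 1040 peaks, up to 509.52.

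The 10 peaks with the highest scores lay between 5969258 and 21020378. The leading one ran from 6175490 to 6184758, with a score of 509.52 and a width of 9269 bp, against 3111 bp for the next widest on the arm. The second, from 21017735 to 21020378, scored 374.45 and was 2644 bp wide. The third, from 19888335 to 19891445, scored 296.76 at 3111 bp. None of these scores has an error, and their order rests on 1 list.

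The fourth to sixth peaks had similar scores. A 2291 bp peak from 12507073 to 12509363 scored 244.70, a 1895 bp peak from 8098868 to 8100762 scored 238.58, and a 2920 bp peak from 7904998 to 7907917 scored 226.99. The last 2 of these lay 191 kb apart, from the end of the sixth to the start of the fifth. Other peaks lay between them, among them the peak of 50.29 from 8058347 to 8059412. Below them, scores of 160.22 (10803266 to 10805291), 145.85 (5969258 to 5970374), 118.22 (12139393 to 12141143) and 105.91 (10764728 to 10765541) complete the 10. The last one was 814 bp wide and was the single peak narrower than 1000 bp to pass 100.

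The first of the 12 peaks over 100 began at 5969258. The 306 peaks before that peak, 29.4% of those on 3L, reached at most 89.40, and the 89 peaks after the last of the 12 reached at most 31.04. These bounds were set by the same scores, so the counts are a description and no test. The 24 peaks over 50 had a wider reach, with the first at 318610 and the last ending at 21020378. They had a median width of 1601.5 bp, and the peaks up to 50 one of 363 bp.

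Of the 12 peaks over 100, 5 had another peak over 50 within 50 kb and 7 had none. Around the leading peak, 5 others had their centres within 50 kb, and the highest of them scored 19.39. The third peak had 16 others within that distance, none above 27.78. The highest neighbours of the second and the fourth peak within 50 kb scored 75.79 and 72.39. The peak from 11757914 to 11759342, which scored 102.25, had no other peak within 50 kb. Over the 12 peaks that passed 100, the number of others within 50 kb had a median of 5.5 and ran from 0 to 16, while the median over all peaks of the arm was 8.

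Among the 24 peaks over 50, 4 pairs of neighbours had centres within 50 kb. The closest pair was 8.80 kb apart, and joined the peak of 244.70 at 12507073 with one of 72.39 from 12516098 to 12517946. The second peak of the arm, at 21017735, lay 17.1 kb from one of 75.79 from 21000554 to 21003409. The peaks of 105.91 and 160.22 were 39.1 kb apart. In the remaining pair the peak of 238.58 lay 40.9 kb from one of 50.29 that ran from 8058347 to 8059412. The median distance from one of the 24 to the next was 616 kb.

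**Figure D3:**
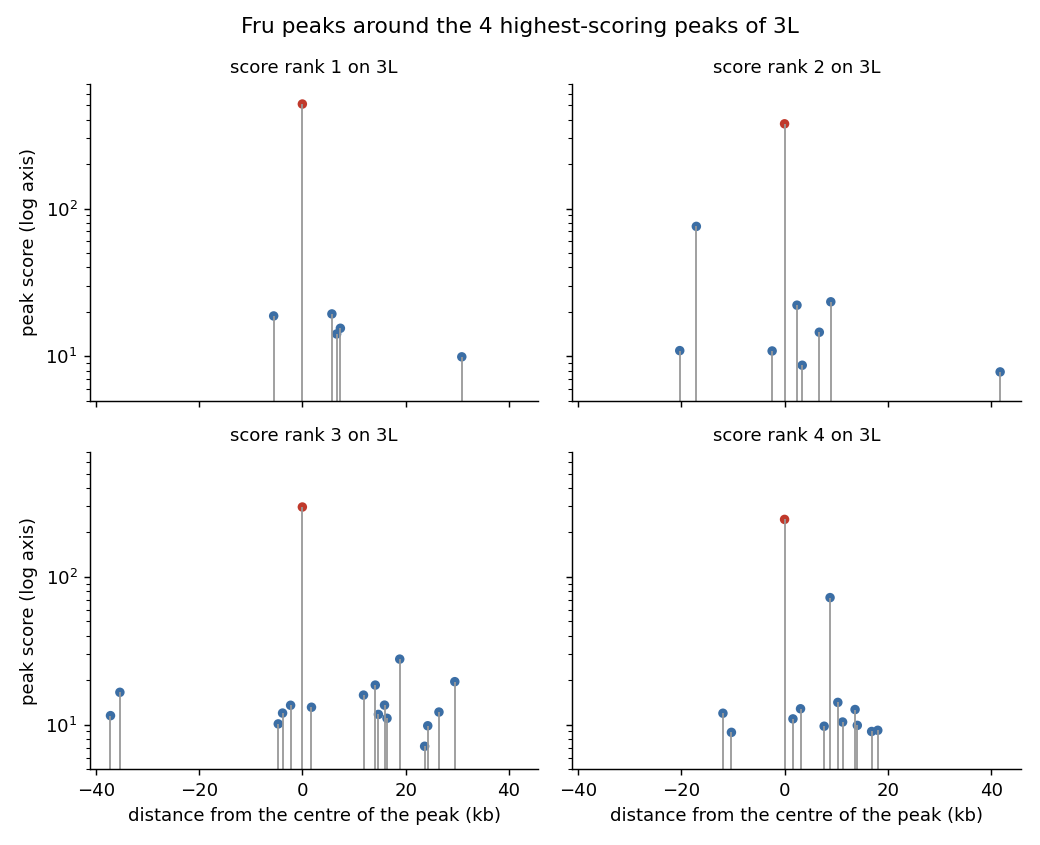
Fru peaks within 50 kb of the 4 highest-scoring peaks of 3L. The x axis is the distance of each peak centre from the centre of the high peak (kb), the y axis is the score (log axis), and the high peak is in red. Other peaks within these 50 kb score at most 75.79, in the second panel.

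By width the same leading peak came first, followed by the third peak by score at 3111 bp. The third widest scored far lower than both of these. It ran from 5760202 to 5763133, 2932 bp, and its score was 25.97, which placed it 62nd on the arm. It touched its neighbours almost directly, with gaps of 45 and 52 bp, and belonged to a chain of 6 peaks. The fourth widest was the 2920 bp peak with a score of 226.99, and the fifth, 2856 bp from 21000554 to 21003409, scored 75.79. Among the 12 widest peaks, 5 scored over 100 and 6 scored between 25.39 and 36.72.

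Fru peaks on 3L came in local groups separated by long empty stretches. The median distance between neighbouring centres was 3715 bp with quartiles of 1211 and 20226 bp (n = 1039 distances), and the bases between the edges of neighbours had a median of 3181. No peaks overlapped, and the shortest gap was 45 bp. Of the 1039 gaps, 333 (32.0%) were under 1000 bp and 353 (34.0%) were from 1000 to 10000 bp. The 61 gaps of 100000 bp or more were 5.87% of all gaps but took up 11.6 Mb, 47.8% of the span. Gaps under 10000 bp, the more common kind, took up 0.115 Mb and 1.34 Mb in their 2 classes.

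**Figure D4:**
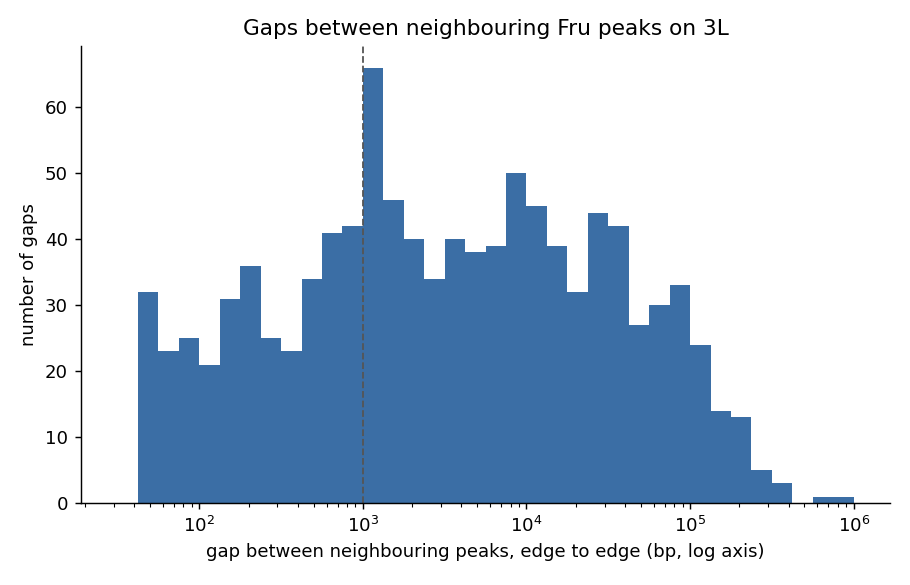
Number of gaps between neighbouring Fru peaks on 3L by gap length, edge to edge (bp, log axis). The dashed line marks 1000 bp, under which neighbours were joined into a chain, and the gaps reach from 45 to 785959 bp.

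Joining peaks with gaps under 1000 bp gave 707 regions. Of these, 484 were single peaks, 162 were pairs, 28 were triplets and 33 were chains of 4 or more peaks that held 148 peaks. Chained and single peaks were alike in size. The 556 peaks in chains, pairs included, had a median width of 368.5 bp and a median score of 12.23, and the 484 single peaks 374 bp and 12.22. Wide peaks made up 10.1% of chained peaks (56) and 7.44% of single ones (36). Of the 24 peaks over 50, 12 were chained and 12 single. Neighbours in a chain resembled each other weakly, with a Spearman's rho of 0.14 between their scores and 0.16 between their widths over 333 pairs, whereas over the 706 pairs with longer gaps these were -0.01 and -0.03. Weak correlations of this size are given as a description and are no finding.

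The longest chain held 7 peaks from 13494531 to 13501284. Their scores ran from 7.45 to 24.05, their widths from 217 to 1613 bp, and no gap among them exceeded 781 bp. The chain was followed by 420 kb without a peak, the third longest gap of the arm. A chain of 6 peaks from 3836818 to 3839609 mirrored this, as it stood at the end of the fourth longest gap, which measured 376 kb, and had 57441 bp without a peak after it. Its gaps were at most 175 bp and its scores 6.76 to 20.77. Another chain of 6, from 1098634 to 1101942, had 63067 bp without a peak before it and 71144 bp after it, and scores of 7.03 to 20.60. One more chain of 6 tied with these in number of peaks. It ran from 5758041 to 5764020, contained the 2932 bp peak described above, and had other peaks close by, 11442 bp before it and 1560 bp after it. Long empty stretches beside a chain were thus not seen for all 4 of these chains. None of the 4 held a score above 25.97, but only 6.92% of all peaks on the arm scored over 25. Shorter chains did hold high scores, as a chain of 5 peaks held 67.33 and another chain of 5 held 509.52. Whether the peaks of such a chain are separate sites or 1 region that the caller divided was not tested.

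In windows of 50 kb, from the telomere end to the window of the last peak, 205 of 489 (41.9%, 95% Wilson interval 37.6% to 46.3%) held no peak. A further 80 held 1 peak. At the other extreme, 16 windows (3.27%) held 10 or more, and these contained 175 peaks, 16.8% of the arm. The 66 fullest windows, 13.5% of all, were enough to hold 50% of the peaks. The variance of the counts was 3.68 times their mean of 2.13. Neighbouring windows were weakly alike, with a Spearman's rho of 0.23 over 488 pairs, given as a description.

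**Figure D5:**
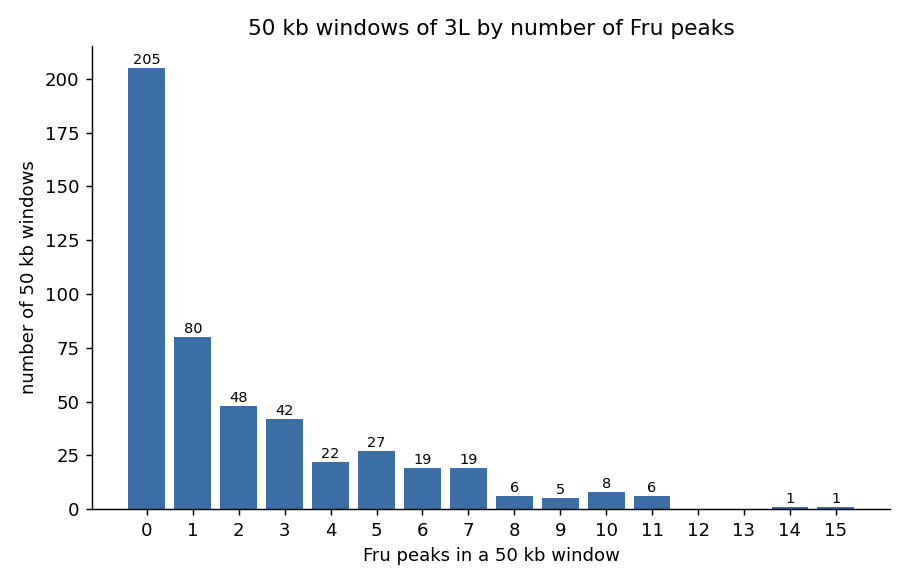
Number of 50 kb windows of 3L by the number of Fru peaks they hold, with the number of windows above each bar. Empty windows are the largest class at 205, and 2 windows hold 14 and 15 peaks.

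The densest 50 kb window ran from 16000001 to 16050000 and held 15 peaks. They lay between 16005989 and 16046549, had a median width of 272 bp and covered 12.3% of the window. The next, from 9400001 to 9450000, held 14 peaks of a larger median width, 559.5 bp, with a median gap of 672 bp. Neither held a score over 50, with highest scores of 38.14 and 30.07.

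A further 6 windows held 11 peaks each, of which the first 3 along the arm are given. The window from 1600001 to 1650000 had scores of 8.57 to 24.27. That from 5750001 to 5800000 had scores of 7.35 to 25.97 and contained the third widest peak. The window from 12500001 to 12550000 differed in that it held the peak of 244.70 and the one of 72.39, and its 11 peaks covered 18.5% of it. Of these 5 dense windows, 4 thus held no score over 50, which only 2.31% of all peaks on the arm passed. The median scores of the 5 ran from 10.9 to 14.825. Over all 16 windows with 10 or more peaks, the median score was 12.56 and the median width 375 bp (175 peaks, 2 over a score of 50). In windows with 1 or 2 peaks the median score was 11.89 and the median width 359.5 bp (176 peaks, 5 over 50).

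The 2 longest gaps followed each other at the centromere end. No peak lay from 22944271 to 23730229, which is 786 kb, nor from 23730447 to 24385675, which is 655 kb. The peak between them ran from 23730230 to 23730446, was 217 bp wide and scored 9.02. Beyond the first of these gaps the arm held 3 peaks in all, 0.288% of its peaks in 1.49 Mb. That is 2.01 peaks per Mb, against 45.5 per Mb from the first peak up to that gap. The stretch was delimited by the longest gap of the same list, so its low density is a description and no test. The 3 peaks were 217, 221 and 251 bp wide and scored 9.02, 13.62 and 11.29. How much of this stretch could be mapped by unique reads was not tested.

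The other long gaps lay within the part of the arm that held many peaks. They ran from 13501285 to 13921473 (420 kb), from 3460553 to 3836817 (376 kb) and from 9891507 to 10217868 (326 kb). In the 50 kb on either side of the first of these, 8 peaks lay before it and 3 after it. For the second these were 4 and 6, and for the third 7 and 1. Each of these 3 empty stretches had at least 6 peaks within 50 kb on 1 side, but this did not hold for all long gaps. The sixth longest, 314 kb, had 4 peaks before it and 3 after it, and the seventh, 303 kb, had 4 and 10. Over all peaks of the arm, the median number of others within 50 kb, both sides together, was 8. In all, 18 gaps on 3L exceeded 200000 bp and 8 exceeded 300000 bp.

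Set against the other large arms, the make-up of the peaks on 3L showed no difference that passed a test. Of the peaks on 3L, 92 of 1040 (8.85%) were 1000 bp or wider, against 420 of 4287 (9.80%) on X, 2L, 2R and 3R together. The difference was -0.95 percentage points, with a 95% Newcombe interval of -2.78 to 1.11 (p = 0.379 by a two-sided Fisher's exact test, adjusted p = 0.598 over 3 tests). Gaps under 1000 bp were 32.0% of 1039 gaps on 3L and 33.5% of 4283 on the other arms, a difference of -1.41 points (-4.52 to 1.81, Fisher's exact test, p = 0.398, adjusted p = 0.598). Scores over 50 were reached by 24 of 1040 peaks on 3L (2.31%) and 97 of 4287 elsewhere (2.26%), a difference of 0.045 points (-0.852 to 1.22, Fisher's exact test, p = 0.908, adjusted p = 0.908). These tests count clustered peaks as independent, which makes their p-values too small and their intervals too narrow. They do not show that the arms are alike, and intervals that are too narrow set no firm bound on a difference. The other arms also differed among themselves. Wide peaks made up 10.1% on 2L, 11.4% on 3R, 8.17% on 2R and 8.92% on X. Scores over 50 were 2.75%, 1.69%, 1.90% and 3.40% in the same order, and gaps under 1000 bp 29.4%, 34.2%, 34.3% and 36.0%.

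Other measures of 3L are given beside those of the other arms without a test. Peaks per Mb of span were 42.8 on 3L, against 41.7 on 2L, 51.1 on 3R, 62.0 on 2R and 33.9 on X. Empty 50 kb windows were 41.9% on 3L, against 42.1% on 2L, 39.9% on 3R, 36.9% on 2R and 55.3% on X. Gaps of 100000 bp or more took up 47.8% of the span on 3L, 50.8% on 2L, 48.4% on 3R, 37.4% on 2R and 61.9% on X. The fullest 50 kb window held 15 peaks on 3L and 16 to 21 on the other arms, and the longest chain 7 peaks on 3L and 7 to 9 elsewhere. The longest gap was 786 kb on 3L and 340 to 550 kb on the others. On 3L this gap and the next longest, 655 kb, lay at the centromere end. Elsewhere on 3L the longest gap was 420 kb, which is within the range of the longest gaps of the other arms. The widest peak was 9269 bp on 3L and 4532 to 5241 bp on the others. The next widest peak on 3L was 3111 bp, below the widest of each other arm.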

How the data were processed

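The deposited file is a single peak list. Its peaks were called with MACS in FlyBase Release 5 coordinates, per the file headers. CASAVA in versions 1.7.0.2 and 1.7.0.3, the aligner BWA, the caller MACS2 and the genome build BDGP5 are listed by the submitters' processing notes. Cross-linking took 15 min in 1.8% formaldehyde, per the labels' protocols. The score the authors deposited has no stated scale. Replicate pooling, the libraries used, thresholds and filters were not given in the sources used here. Further columns the authors deposited hold the start and end of every peak in bp.

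Peaks on 3L were sorted by start, with no filter. Width was last minus first base plus 1, and a gap the bases between neighbours. Windows of 1 Mb and 50 kb were laid from base 1 and took peaks by their centre. Gaps under 1000 bp joined peaks into chains. Regions named are the first and last peak, the 10 highest scores, the 5 widest, the 5 densest 50 kb windows, the 5 longest gaps, the 3 longest chains, and the 3 fullest and 3 emptiest whole 1 Mb windows; other peaks were named after their values were seen. Shares were compared by two-sided Fisher's exact tests with Benjamini-Hochberg adjustment over 3 tests. The functions were tested on simulated data. The members and tests were chosen with earlier results of these data known. The gene table at hand is of Release 6 and was not set against these peaks. Tests used scipy 1.17.1, tables pandas 2.3.3 and numpy 2.4.6, and plots matplotlib 3.10.9, in Python 3.11.15.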

Additional observations from a re-analysis of the deposited data

How the results depend on the processing

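Of 14 alternatives for the 3 shares compared between 3L and the other large arms, none passed the threshold of an adjusted p of 0.05. The lowest p-value came with 2L and 3R only, where wide peaks were 8.85% on 3L and 10.9% elsewhere. That difference was -2.04 points (-4.10 to 0.18, Fisher's exact test, p = 0.075, adjusted p = 0.226). In 2 of the 14 alternatives the sign of the difference turned. With gaps under 2000 bp in place of 1000 bp, the difference in close neighbours was 1.06 percentage points (44.4% on 3L, 43.3% elsewhere; Fisher's exact test, adjusted p = 0.83). With scores over 25 in place of 50, the difference was -1.47 points (6.92% on 3L, 8.40% elsewhere; Fisher's exact test, adjusted p = 0.386). Among the descriptions, the median distance between centres was 3715 bp as reported. It was 11522 bp with the 50% of peaks of highest score (526 peaks on 3L) and 10892 bp with chains merged (707 regions). Merging takes out every gap under 1000 bp by definition. Empty windows were 22.9% with windows of 100 kb and 54.9% with the 50% of peaks of highest score, against 41.9%. The share of peaks in the fullest 1 Mb window, 7.69%, stayed within 6.92% to 8.56%, and that of the section next to the telomere, 25.9%, within 24.8% to 25.9%. No paired analysis was possible because each peak has 1 value for all libraries together, and leaving out a replicate was not run for the same reason. Read depth per library is unknown, so regions without a peak may lack depth or mappable sequence, which was not tested.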

Other observations

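Some heterochromatin of the same arm has a sequence of its own in Release 5, named 3LHet, whose peaks are not among the 1040. Whether the 3L sequence itself also reaches into heterochromatin was not tested. The 3LHet sequence held 3 peaks. They ran from 571462 to 571880 with a score of 28.64, from 701839 to 702042 with a score of 8.43, and from 1662215 to 1662429 with a score of 12.76. Their widths of 204 to 419 bp add up to 838 bp. The first scored above each of the last 3 peaks at the centromere end of 3L.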
